A study of Mus musculus with 3 samples.

Results

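The genes described here make, carry and remove the signalling nucleoside adenosine in mesangial cells, the contractile pericyte-like cells of the kidney glomerulus. They were fixed as a list of 9 genes, namely Nt5e, Entpd1, Entpd2, Adora1, Adora2a, Adora2b, Ada, Adk and Slc29a1, and 6 of the 9 were measured among 18685 named genes. The 3 receptor genes Adora1, Adora2a and Adora2b are not analysed here, so the values below concern the enzymes and the transporter and not the receptors. There was 1 group of 3 samples, called samples 1, 2 and 3. Each came from 1 kidney of an adult male CD-1 mouse carrying Tg(Meis1-EGFP)FO156Gsat, a bacterial artificial chromosome transgene that places green fluorescent protein under Meis1 regulatory sequence. Glomeruli were sieved from collagenase-treated cortex and trypsinised, fluorescent cells were sorted, and the labels name glomerular and extraglomerular mesangium as the source. The sorted population is therefore defined by reporter fluorescence, and no sample of another cell type or of mice without the transgene was available for comparison. Whether different mice gave the 3 kidneys is not stated in the labels, and the spread between samples may be technical in part.

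Adenosine outside the cell is formed by a short chain of membrane enzymes. ATP that leaves a cell is stripped of phosphate to AMP by ectonucleoside triphosphate diphosphohydrolases such as the products of Entpd1 (CD39) and Entpd2, and the ecto-5-prime-nucleotidase encoded by Nt5e (CD73) turns AMP into adenosine. Adenosine then acts on G protein-coupled receptors or enters cells through the equilibrative transporter encoded by Slc29a1, where adenosine kinase (Adk) returns it to AMP and adenosine deaminase (Ada) converts it to inosine. In the kidney this chain is known for its place in tubuloglomerular feedback, in which adenosine formed near the extraglomerular mesangium constricts the afferent arteriole.

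The promoters of the extracellular enzymes are shown because these genes gave the highest and the lowest signals relative to background among the 6. The windows are 300 bases long and cover an annotated transcript start in RefSeq (GRCm38.p6), most of each window lying upstream, and all 6 measured genes had at least 1 window. Capitals mark the letters ACGTG (the core of the hypoxia response element), TGACG (the short form of the cyclic AMP response element) and GGGCGG (the GC box bound by Sp1), searched on both strands. Overlapping matches were counted separately. Nt5e lies at chr9:88327359-88327658, plus strand, Entpd1 has starts at chr19:40612116-40612415 and chr19:40659520-40659819, both plus strand, and Entpd2 lies at chr2:25395624-25395923, plus strand.
Nt5e: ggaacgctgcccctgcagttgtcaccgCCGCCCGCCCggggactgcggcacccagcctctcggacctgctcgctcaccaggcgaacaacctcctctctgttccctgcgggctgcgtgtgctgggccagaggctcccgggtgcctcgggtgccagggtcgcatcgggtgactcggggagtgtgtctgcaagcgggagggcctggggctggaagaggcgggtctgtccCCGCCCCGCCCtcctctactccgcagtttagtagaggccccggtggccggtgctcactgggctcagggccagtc
Entpd1, first start: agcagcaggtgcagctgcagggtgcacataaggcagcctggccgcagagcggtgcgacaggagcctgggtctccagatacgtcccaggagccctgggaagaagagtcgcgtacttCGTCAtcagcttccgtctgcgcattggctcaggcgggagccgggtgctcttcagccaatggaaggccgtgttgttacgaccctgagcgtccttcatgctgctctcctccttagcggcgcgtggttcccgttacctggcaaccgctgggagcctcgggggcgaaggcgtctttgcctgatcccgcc
Entpd1, second start: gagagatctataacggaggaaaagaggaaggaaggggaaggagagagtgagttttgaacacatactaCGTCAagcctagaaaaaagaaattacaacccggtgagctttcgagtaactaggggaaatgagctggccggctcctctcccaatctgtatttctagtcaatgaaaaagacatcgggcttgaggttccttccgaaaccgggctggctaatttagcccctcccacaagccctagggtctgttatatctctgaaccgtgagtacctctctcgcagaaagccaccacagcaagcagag
Entpd2: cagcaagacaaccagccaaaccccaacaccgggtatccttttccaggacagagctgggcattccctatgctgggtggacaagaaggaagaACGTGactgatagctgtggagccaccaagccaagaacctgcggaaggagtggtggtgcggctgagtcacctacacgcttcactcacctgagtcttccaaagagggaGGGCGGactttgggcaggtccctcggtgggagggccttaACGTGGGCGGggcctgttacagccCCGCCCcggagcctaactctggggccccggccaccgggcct

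The Nt5e window held 23 CG dinucleotides, 4 matches to GGGCGG and none to the other 2 motifs. Both Entpd1 windows held 1 match to TGACG and none to ACGTG or GGGCGG, with 23 CG dinucleotides at the first start and 10 at the second. The Entpd2 window held 13 CG dinucleotides, 2 matches to ACGTG and 3 to GGGCGG. Across all 32851 windows the median was 7 CG dinucleotides, and 35.7% held GGGCGG, 20.8% TGACG and 19.6% ACGTG. These matches are a description of the letters in the windows, and the probe sets do not tell which Entpd1 start was used.

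All values are deposited log2 signals of an Affymetrix mouse gene array, with means given ± SD (n = 3). A gene was called above background when it passed, on every array, the 95th percentile of 1269 probe sets of families taken as silent. The families were receptors of the olfactory, vomeronasal and trace amine types, and keratin-associated proteins. Their silence in kidney was assumed, and expression of single members was not tested. These silent-gene thresholds were 7.48, 7.46 and 7.40 on the arrays of samples 1, 2 and 3. Probe sets differ in affinity, so each gene is read against the threshold and against itself in other samples, and no order of transcript amount between genes is implied. Each of the 6 genes had exactly 1 probe set.

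Of the 6 measured adenosine genes 5 passed the threshold in all 3 samples, against 58.0% of all named genes (10842 of 18685). Nt5e, Entpd1, Adk and Slc29a1 also lay more than 1 log2 unit above the threshold on every array, as did 32.7% of named genes (6119). Ada passed by 0.08 to 0.15 and Entpd2 missed by 0.02 to 0.10, so these genes lay at the edge of background. With 6 genes and no test, these shares describe the list only.

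Nt5e, the enzyme that makes adenosine from AMP, lay far above background in every sample. Its signals were 11.50, 11.48 and 11.45 in samples 1, 2 and 3 (11.48 ± 0.02). They exceeded the thresholds by 4.02, 4.02 and 4.05. The samples nearly coincided, and 0 of the 1269 silent probe sets reached the Nt5e value on any array, where the highest silent values were 10.03, 10.19 and 10.19.

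Of the enzymes that supply AMP, Entpd1 was clearly above background and Entpd2 was not. Entpd1 had 10.42, 10.42 and 10.32 in samples 1, 2 and 3 (10.39 ± 0.06), at least 2.92 above the threshold, and 0 silent probe sets reached it. Entpd2, whose product splits ATP and is much less active on ADP, had 7.38 on all 3 arrays, which was 0.10, 0.08 and 0.02 below the thresholds. Between 68 and 73 of the 1269 silent probe sets were at or above Entpd2 on each array. A signal at this level shows no Entpd2 transcript above background and does not show that the transcript is absent.

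The transporter gene Slc29a1 had 8.63 on all 3 arrays, between 1.15 and 1.22 above the thresholds. It was exceeded or equalled by 12 silent probe sets on each array. Slc29a1 thus passed the threshold raised by 1 in every sample, by a small distance.

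Of the enzymes that remove adenosine inside cells, Adk lay well above background and Ada lay at its edge. Adk had 9.52 on all 3 arrays, from 2.04 to 2.11 above the thresholds, and at most 5 silent probe sets reached it. Ada had 7.56, 7.55 and 7.55 in samples 1, 2 and 3 (7.55 ± 0.004), only 0.08, 0.09 and 0.15 above the thresholds. From 50 to 54 silent probe sets were at or above Ada on each array, 4.15% of them on average.

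**Figure D1:**
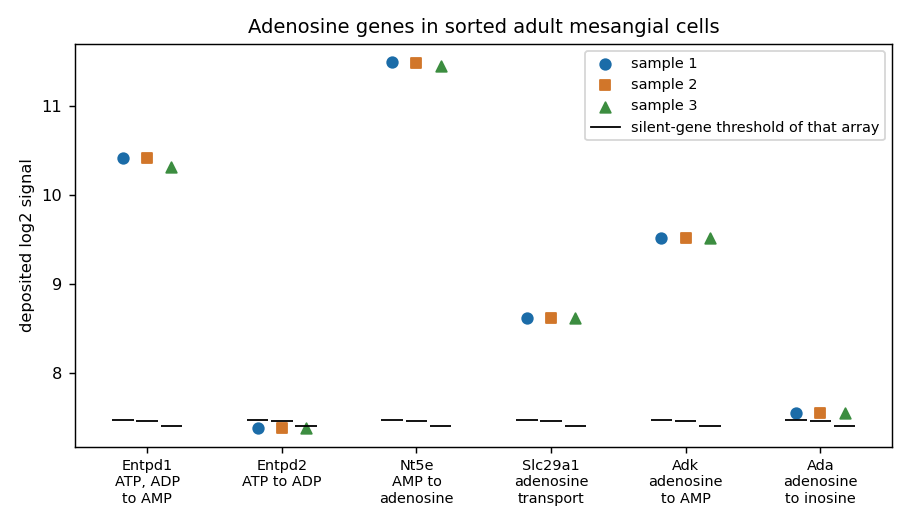
Deposited log2 signal (vertical axis) of the 6 measured genes in samples 1 (circles), 2 (squares) and 3 (triangles), with short black lines for the silent-gene threshold of each array. Nt5e, Entpd1, Adk and Slc29a1 lie more than 1 above the lines in every sample, Ada lies just above them and Entpd2 just below.

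The adenosine genes differed little between the samples. Entpd1 had the largest range, 0.10, because sample 3 lay below samples 1 and 2, which were identical; without sample 3 the largest range among the 6 genes was 0.01 (Nt5e). The Nt5e range was 0.04. Adk, Slc29a1 and Entpd2 had 1 value on all 3 arrays, and Ada had the same value in samples 2 and 3. Identical values were common in the deposited data: 39.4% of the named genes above the threshold had 1 value on all 3 arrays and their median range was 0.03. A larger range than that of Nt5e was found in 48.2% of them, and 34.3% exceeded Entpd1. An SD of 0 is therefore no sign that a gene was measured without error.

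**Figure D2:**
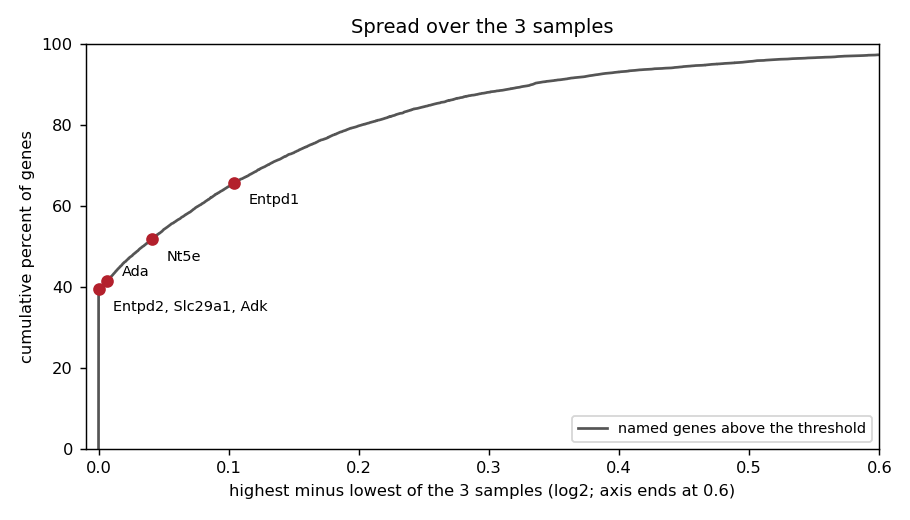
Cumulative percent (vertical axis) of the 10842 named genes above the threshold by their range, the highest minus the lowest of the 3 samples in log2 units (horizontal axis). The 6 adenosine genes are red points placed at their own range on this curve, Entpd2 among them although it is not above the threshold, and all lie at or below 0.10.

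Entpd1, with the largest range of the 6, was compared with the 10837 called genes outside the adenosine list by the distance between their deviations from their own mean over the 3 samples. The nearest were Trim68 (8.16, 8.16 and 8.05 in samples 1, 2 and 3), Tmem159 (9.04, 9.04 and 8.94) and Tmed7 (10.52, 10.52 and 10.41). In all, 307 genes (2.83%), these 3 included, lay within 0.05 of the Entpd1 pattern. The likeness rests on 3 samples and a difference of 0.10 in 1 of them.

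Signals of mesangial markers stood beside signals of markers of other kidney cells, and each count is read against the 58.0% of named genes that passed and the 32.7% that passed the raised threshold. All 12 mesangial markers, Meis1 among them, passed the raised threshold. Of 10 endothelial markers 10 passed and 6 passed the raised threshold, and the list's mean signal was 8.934, 8.893 and 8.998 in samples 1, 2 and 3. The others, Pecam1, Cdh5, Kdr and Tie1, passed by only 0.07, 0.13, 0.09 and 0.07 at their lowest distance. Like Ada, these lay at the edge of background. All 3 measured renin cell markers, Gja5, Gja4 and Crip1, passed the raised threshold, with the connexin gene Gja5 at 12.88 ± 0.07. The renin gene Ren1 itself and Akr1b7 are not analysed here, so this count does not show that renin cells were present. Of 7 fibroblast markers 5 passed and 3 passed the raised threshold, among them Pdgfra at 11.16 ± 0.13. Podocyte markers passed in 3 of 5, and 1, the transcription factor gene Wt1, passed the raised threshold, at least 2.66 above the threshold itself. Of 10 macrophage and granulocyte markers 4 passed and 1 passed the raised threshold. That 1 was the endotoxin co-receptor gene Cd14 at 9.41, 9.23 and 9.41 in samples 1, 2 and 3, and Cx3cr1, Cd68 and Aif1 also passed, whereas Adgre1, Csf1r and Ptprc were below the threshold on all 3 arrays. Lymphocyte markers passed in 1 of 7 and 0 passed the raised threshold. Of 10 proximal tubule markers 5 passed, led by Slc22a12 at 0.88 above the highest threshold, and 0 passed the raised threshold, while Lrp2 and Cubn were below the threshold. Of 9 later tubule markers 6 passed and 0 passed the raised threshold on all 3 arrays.

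Entpd1 is also known from endothelium and macrophages. Markers differed in which sample was lowest: some tubule markers were, like Entpd1, lowest in sample 3, and others were not. The proximal tubule gene Kap had 8.44, 8.51 and 7.17 in samples 1, 2 and 3, below the threshold in sample 3 alone. The uromodulin gene Umod had 9.51, 9.18 and 8.22, a range of 1.29, and passed the raised threshold in samples 1 and 2. The later tubule marker Calb1 had 7.72, 8.66 and 8.49 and was lowest in sample 1. Mesangial markers differed in the same way. Igfbp5 had 12.84, 12.82 and 12.48 and was also lowest in sample 3. Itga8, at 12.94, 12.96 and 12.97, was lowest in sample 1, and Ptn, at 13.19, 12.96 and 13.14, in sample 2. The mean signal of the mesangial list was nearly level, at 11.57, 11.59 and 11.56 in samples 1, 2 and 3. The endothelial markers were mixed, with Tek at 10.90, 10.76 and 10.67 lowest in sample 3 and Flt1 at 8.72, 8.72 and 9.04 highest there. The part of any of these cells in the Nt5e, Entpd1, Adk or Slc29a1 signal was not tested, and RNA per cell and number of cells cannot be told apart in sorted bulk samples.

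The wider pathway held 85 genes in 9 lists, of which 74 were measured and 40 (54.1%) passed the threshold, against 58.0% of named genes. The raised threshold was passed by 21 (28.4%), against 32.7% of named genes. Counts per list below are read against these shares of named genes. The 4 adenosine receptor genes, Adora3 included, are not analysed here. Outside the 6 adenosine genes 35 of 68 (51.5%) passed, a share near the background.

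Of the 8 measured genes for surface breakdown of nucleotides only 3 passed, and 2 of these were Nt5e and Entpd1. The third was Alpl, the tissue-nonspecific alkaline phosphatase, which can also split AMP, at 7.51 on all 3 arrays and only 0.03 above the highest threshold. Entpd3 (7.10) and Entpd8 (6.78), the other measured members of the Entpd1 family on the cell surface, each had 1 value on all arrays and were below the threshold, as were the pyrophosphatase gene Enpp3 at 5.19 and the NAD-processing gene Bst1 at 6.51. Entpd1 was thus the only one of the 4 measured Entpd genes in the list above background.

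Genes for the exit of ATP passed in 4 of 8. They were the volume-regulated anion channel gene Lrrc8a at 9.64, the pannexin genes Panx2 at 8.27 and Panx1 at 7.97, and the calcium homeostasis modulator gene Calhm2 at 8.12, each identical on the 3 arrays. Only Lrrc8a passed the raised threshold. The connexin gene Gja1 had 7.14, 7.49 and 7.41 in samples 1, 2 and 3, below the threshold in sample 1 and just above it in the others. The vesicular nucleotide transporter gene Slc17a9 had 6.65 and was below the threshold on every array.

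Receptors for the nucleotides upstream of adenosine passed in 4 of 15. The ATP-gated channel gene P2rx1, known from preglomerular vascular smooth muscle, had 10.47, 9.81 and 10.84 in samples 1, 2 and 3 (10.38 ± 0.52). Its range of 1.03 was the widest of the pathway, with sample 2 lowest, yet it lay at least 2.35 above the threshold in every sample. The channel gene P2rx4 had 9.87 ± 0.03, P2rx7 8.41 ± 0.06 and the uridine diphosphate receptor gene P2ry6 8.45 ± 0.06. The other 11 were below the threshold on all 3 arrays, among them P2ry1 (7.27), P2ry2 (6.54), P2ry12 (5.65) and P2ry10 (4.53 ± 0.01).

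Nucleoside transporter genes passed in 4 of 7, with Slc29a1 the one that passed the raised threshold. The other equilibrative transporter genes were Slc29a3 at 8.29 ± 0.04 and Slc29a2 at 7.97, while Slc29a4, at 7.02, did not pass. Of the sodium-coupled concentrative transporters, Slc28a1 had 7.96, 0.48 above the highest threshold, and Slc28a2 (5.43 ± 0.01) and Slc28a3 (6.64) were below it.

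Enzymes that take adenosine and purine bases onward passed in 9 of 10. Beside Adk, the salvage enzyme gene Hprt had 10.54, 10.30 and 10.41 in samples 1, 2 and 3 (10.42 ± 0.12), the purine nucleoside phosphorylase gene Pnp, which follows Ada, 8.86 ± 0.06, and the xanthine dehydrogenase gene Xdh 8.84 ± 0.05. These were the 4 that passed the raised threshold. Of the AMP deaminase genes Ampd2 had 8.48 ± 0.07 and Ampd3 8.13 ± 0.12, whereas Ampd1, the skeletal muscle form, had 6.31 and did not pass.

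Intracellular nucleotidase and adenosylhomocysteinase-related genes, the list for adenosine formed inside cells, passed in 6 of 8. The adenosylhomocysteinase gene Ahcy itself is not analysed here, and the 2 genes that did not pass were those of the AMP-preferring nucleotidases. The count therefore does not show that adenosine was formed inside these cells. Ahcyl1, which encodes a regulator of inositol trisphosphate receptors related to adenosylhomocysteinase, had 11.19 on all 3 arrays, Ahcyl2 9.56 ± 0.10 and the nucleotidase gene Nt5c3b 9.19 ± 0.11. The nucleotidase gene Nt5c had 8.77, 8.72 and 9.14 in samples 1, 2 and 3, highest in sample 3. The cytosolic AMP-preferring nucleotidase genes Nt5c1a (6.27) and Nt5c1b (5.59) were below the threshold. Adenylate kinase genes passed in 2 of 6, with the mitochondrial Ak3 at 9.26 and Ak1 at 7.84 ± 0.06. Ak4 had 7.38, 7.55 and 7.55, missing the threshold in sample 1 alone, and Ak7 had 5.79.

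The inhibitory G protein and adenylyl cyclase genes through which adenosine receptors act on cyclic AMP passed in 8 of 12, and 6 passed the raised threshold. Gnai2 had 12.06 ± 0.09, Gnai3 11.06 ± 0.04 and Gnai1 10.88 ± 0.15. Of the cyclases Adcy6 had 10.59 on all 3 arrays, Adcy4 9.08 and Adcy9 8.77 ± 0.10, while Adcy5 (7.38 ± 0.01), Adcy7 (7.41), Adcy2 (6.78) and Adcy8 (6.50) did not pass. All 3 measured inhibitory subunit genes were therefore above background, and the stimulatory subunit gene Gnas is not analysed here.

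**Figure D3:**
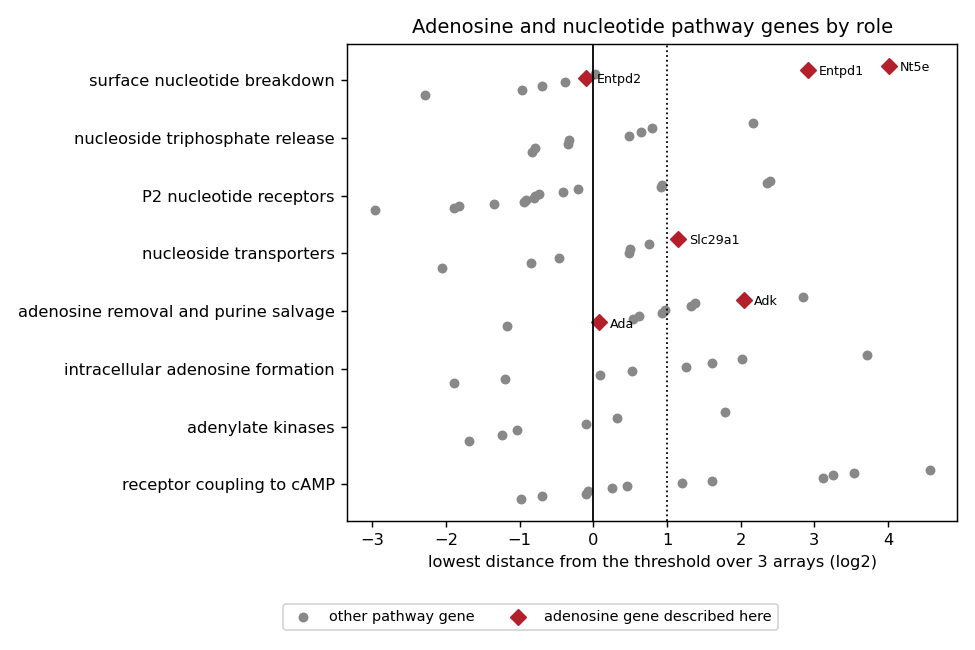
Lowest distance from the silent-gene threshold over the 3 arrays in log2 units (horizontal axis) for the measured pathway genes of each role (rows; adenosine receptors have no row). Red diamonds are the adenosine genes, grey points the others, the solid line the threshold and the dotted line the threshold raised by 1; Nt5e at 4.02 and Entpd1 at 2.92 stand alone at the right of their row.

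The calls for Nt5e, Entpd1, Adk and Slc29a1 held under each of the 11 other processing choices tried, and those for Ada and Entpd2 did not. Many of these choices could not undo a passing call. A 90th percentile threshold is lower, and leaving out a sample or averaging the arrays cannot reduce the lowest distance. Centring moved values and thresholds together, and with 1 probe set per gene averaging probe sets changed nothing. The raised threshold repeats the call of more than 1 log2 unit above the threshold, already given for these 4 genes. The firmest check was therefore the 99th percentile. Across these choices the lowest distance of Nt5e from the threshold lay between 3.02 and 4.39, that of Entpd1 between 1.92 and 3.25, that of Adk between 1.04 and 2.44 and that of Slc29a1 between 0.15 and 1.55. Entpd2 passed by 0.31 at a 90th percentile threshold. Ada missed by 0.81 at a 99th percentile threshold and by 0.92 at the raised threshold.

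**Figure D4:**
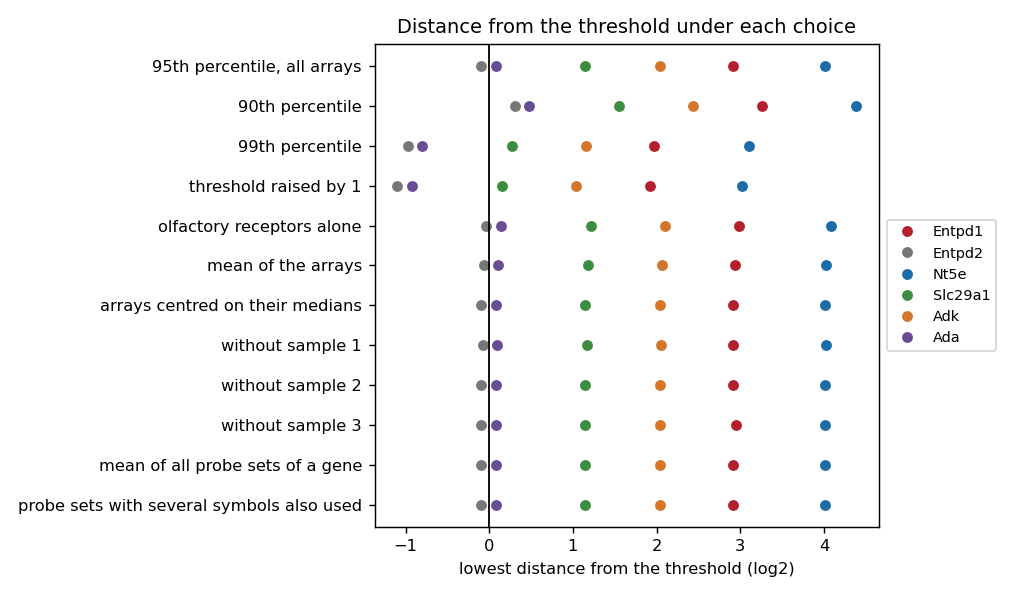
Lowest distance from the threshold in log2 units (horizontal axis) of the 6 genes under the chosen processing (top row) and each of 11 alternatives (other rows), with a line at 0. Ada and Entpd2 change sides of the line with the percentile used, and the other genes stay at its right.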

How the data were processed

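Per the labels' protocols, RNA of 3 sorted samples was amplified (WT-Ovation Pico), biotin-labelled and put on 1 Affymetrix array each. Log2 probe set signals were deposited. The submitters' processing notes name Affymetrix Expression Console, whose version and summary method were not given in the labels. A highest value of 14.39 pointed to base 2. The value distributions of the arrays were nearly alike. Spreads may be understated, since 14310 of 35557 probe sets (40.2%) held 1 value on all 3 arrays. Scale and centring beyond array medians of 7.53, 7.56 and 7.54 are unknown.

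The platform annotation listed 23410 probe sets, 21789 with 1 symbol and 1621 with several; 12147 were unlisted and stay unnamed. Symbols were updated by Entrez number through RefSeq (GRCm38.p6) for 21698. Per gene the probe set with the highest mean was kept. Of 1253 silent genes 59 (4.71%) passed the threshold and 12 (0.958%) the threshold raised by 1. No test was made, since there was 1 group. Python 3.11.15 and pandas 2.3.3 were used. The number of arrays limits precision.

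The genes, lists and threshold were chosen with earlier results of these data known. Named from each list were the adenosine genes, the 3 members with the greatest distance above the threshold and the 1 with the least; other genes were chosen after their values were seen.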

Additional observations from a re-analysis of the deposited data

How the results depend on the processing

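Of 105 values recomputed under other choices, 97 kept their call or moved little. Some choices could not change a value by construction, so this count is no measure of robustness. The count of 5 adenosine genes above the threshold was 6 at the 90th percentile, 4 at the 99th and 4 at the threshold raised by 1, and 5 under all other choices. The pathway count of 40 fell to 25 at the 99th percentile and to 21 at the raised threshold, where named genes fell to 6599 and 6119 against 10842, because both thresholds are higher. The lower 90th percentile gave 48 pathway genes and 12854 named genes. Leaving out each sample in turn gave 5 adenosine genes every time, 40 to 42 pathway genes and 10875 to 11012 named genes. The largest range of an adenosine gene, 0.10, lay between 0.0122 (without sample 3) and 0.10 when samples were left out, and these alternatives for the range were chosen after the data were seen. Centring the arrays gave 0.11. No paired analysis was possible because there was 1 group. Signals of Ada and Entpd2 are too close to background to separate expression from none.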
